A study of Mus musculus with 228 samples.

Results

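Control neurons of 2 hippocampal cell types were compared, pyramidal cells of field CA1 and granule cells of the dentate gyrus. Cells were chosen by their titles in the quality-controlled table, which gave 46 CA1 cells and 47 granule cells, of 54 and 60 such cells sequenced. These 93 cells stand beside 96 cells of the other condition in that table. Each cell was drawn into a patch pipette from an acute slice of ventral hippocampus, and its RNA was sequenced alone. CA1 cells came from medial CA1 of Nex-Cre mice, and granule cells came from Calb1-Cre mice. Mice were aged 3 to 4 months, and their control cells had been given a Cre-dependent adeno-associated virus (AAV) for EGFP alone 1 month before collection. The other cells of the series (45 CA1 and 51 granule cells) had an AAV for Ascl4 as well, and they served here only as a further set in which to look up the same contrast. Cre line and cell type cannot be told apart, since each type was reached through 1 line. Every cell carried EGFP from an injected virus, so no uninjected neuron was compared.

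The labels name no animal, so cells were not taken as replicates. With each group as 1 sample, no test was made and the spread between animals is unknown. Reads were summed over the cells of a group and scaled to counts per 1000000 reads (CPM), and differences are log2 ratios of CA1 over granule cells with 1 CPM added to each. For genes at low levels this addition makes the ratio smaller than the true one. Expressed genes had a read in at least 25% of the cells in 1 group and a summed level of at least 10 CPM in 1 group. A gene was called when it was expressed, differed at least 2-fold, and differed the same way in all 4 pairings of the runs of title numbers. CA1 titles fall into runs of 15 and 31 cells and granule cell titles into runs of 15 and 32 cells, which the labels do not call batches. A cell was said to reach a gene at 10 CPM. Intervals are exact, at 95%. They cover only the error of counting reads or cells and not the spread between animals, and reads copied by PCR and lacking molecular identifiers are not independent molecules.

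Granule cells receive the entorhinal input to the hippocampus and send mossy fibres to CA3, while CA1 pyramidal cells lie at the end of the circuit and carry its output to the subiculum and beyond. Both are glutamatergic and derive from neighbouring parts of the embryonic cortex. The homeobox factor Prox1 is required for granule cell identity, and C1ql2 is a secreted synaptic organizer of mossy fibre terminals. Neurod6 (also called Nex) is a basic helix-loop-helix factor of pyramidal neurons, and Fibcd1 is a membrane receptor known in the hippocampus as a marker of CA1. The Cre line that gave the CA1 cells is named for Nex, so Neurod6 is not a marker independent of how these cells were labelled.

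These 4 genes mark the cell types compared, so the promoter of each is shown. The 250 bases before the first start that RefSeq lists on GRCm38.p6 are given 5′ to 3′ on the gene's own strand. Capitals mark the E-box CANNTG, the core motif that basic helix-loop-helix factors such as Neurod6 and Neurod1 recognise, which reads alike on both strands.
Neurod6, chr6:55681264-55681513, minus strand: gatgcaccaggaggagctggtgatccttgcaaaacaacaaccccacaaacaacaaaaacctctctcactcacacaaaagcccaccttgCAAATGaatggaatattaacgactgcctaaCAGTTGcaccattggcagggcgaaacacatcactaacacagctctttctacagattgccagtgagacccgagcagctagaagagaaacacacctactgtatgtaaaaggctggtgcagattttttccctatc
Fibcd1, chr2:31846006-31846255, minus strand: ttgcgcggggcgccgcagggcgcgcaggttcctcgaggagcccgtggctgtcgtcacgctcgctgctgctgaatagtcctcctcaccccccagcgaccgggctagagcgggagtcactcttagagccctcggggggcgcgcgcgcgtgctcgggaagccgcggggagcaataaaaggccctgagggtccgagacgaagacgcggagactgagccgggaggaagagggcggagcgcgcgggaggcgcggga
Prox1, chr1:190170828-190171077, minus strand: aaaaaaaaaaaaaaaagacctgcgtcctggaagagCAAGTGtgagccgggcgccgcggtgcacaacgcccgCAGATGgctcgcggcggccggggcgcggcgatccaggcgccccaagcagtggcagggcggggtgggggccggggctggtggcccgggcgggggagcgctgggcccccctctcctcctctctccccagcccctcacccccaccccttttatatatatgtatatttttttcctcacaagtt
C1ql2, chr1:120340332-120340581, plus strand: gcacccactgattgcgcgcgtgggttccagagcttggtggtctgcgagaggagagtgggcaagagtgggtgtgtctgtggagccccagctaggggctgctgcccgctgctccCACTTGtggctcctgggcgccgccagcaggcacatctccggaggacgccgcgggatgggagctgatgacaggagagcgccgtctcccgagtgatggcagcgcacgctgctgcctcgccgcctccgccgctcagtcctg
The window held 2 E-boxes in Neurod6, CAAATG and CAGTTG, and 0 in Fibcd1. It held 2 in Prox1, CAAGTG and CAGATG, and 1 in C1ql2, CACTTG. Of 27025 promoters in the table, 66.04% held at least 1 E-box in the same 250 bases, so the motif is common in such windows.

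Total reads per cell ranged from 1080049 to 19850941 and summed to 249606719 in CA1 and 215001259 in granule cells. The median cell had reads of 6919.5 genes in CA1 and of 6975 in granule cells. With each cell thinned to 1000000 reads, the median cell had reads of 5042.5 genes in CA1 and 4981 in granule cells. The 4 Y-linked genes Ddx3y, Eif2s3y, Kdm5d and Uty together reached 10 CPM in 22 of 46 CA1 cells and 8 of 47 granule cells, so the groups differ in this measure, and counts without those cells are given with the calls. Levels of microglia markers also differed, as given with the markers of other cells. Ascl4, the gene of the virus that controls lacked, stood at 32.6 CPM in control CA1 cells and 47.2 CPM in control granule cells, with a read in every control cell, against 9395 CPM in Ascl4 CA1 cells and 14111 CPM in Ascl4 granule cells.

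Neurod6 (chr6:55677822-55681263, minus strand, GRCm38) stood at 319 CPM (317 to 322) in CA1 cells, against 0.112 CPM (0.0715 to 0.166) in granule cells. CA1 cells ran from 0 through a median of 219.3 to 1348 CPM, and granule cells from 0 through a median of 0 to 1.21 CPM. The gene reached 10 CPM in 40 of 46 CA1 cells (86.96%, 73.7 to 95.1) and 0 of 47 granule cells, where the upper end of the interval was 7.55%. Fibcd1 (chr2:31813290-31846005, minus strand) stood at 543 CPM in CA1 cells, where cells ran from 0.54 through 440.0 to 7060 CPM. In granule cells it stood at 3.21 CPM, with a median of 0 and a highest cell of 179.6 CPM that gave 93.8% of the group's reads. Most CA1 cells were therefore far above nearly all granule cells for both genes, and the ranges overlapped only through CA1 cells that were low and, for Fibcd1, through 1 high granule cell.

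The granule cell genes mirrored this. C1ql2 (chr1:120340582-120343174, plus strand) stood at 0.18 CPM in CA1 cells, which ran from 0 through 0 to 1.96 CPM. In granule cells it stood at 1017 CPM (1012 to 1021), and cells ran from 0.537 through 949 to 3149 CPM. It reached 10 CPM in 0 of 46 CA1 cells, where the upper end of the interval was 7.71%, and in 38 of 47 granule cells (80.9%, 66.7 to 90.9). Prox1 (chr1:190118035-190170714, minus strand) stood at 0.24 CPM in CA1 cells, where it had a read in 12 cells and a highest value of 7.88 CPM. In granule cells it stood at 175.3 CPM, with a read in all 47 cells, a median of 19.2 CPM and a highest value of 925 CPM. Only 25 of 47 granule cells (53.2%, 38.1 to 67.9) reached 10 CPM of Prox1, so many cells of this label lay below that level.

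**Figure D1:**
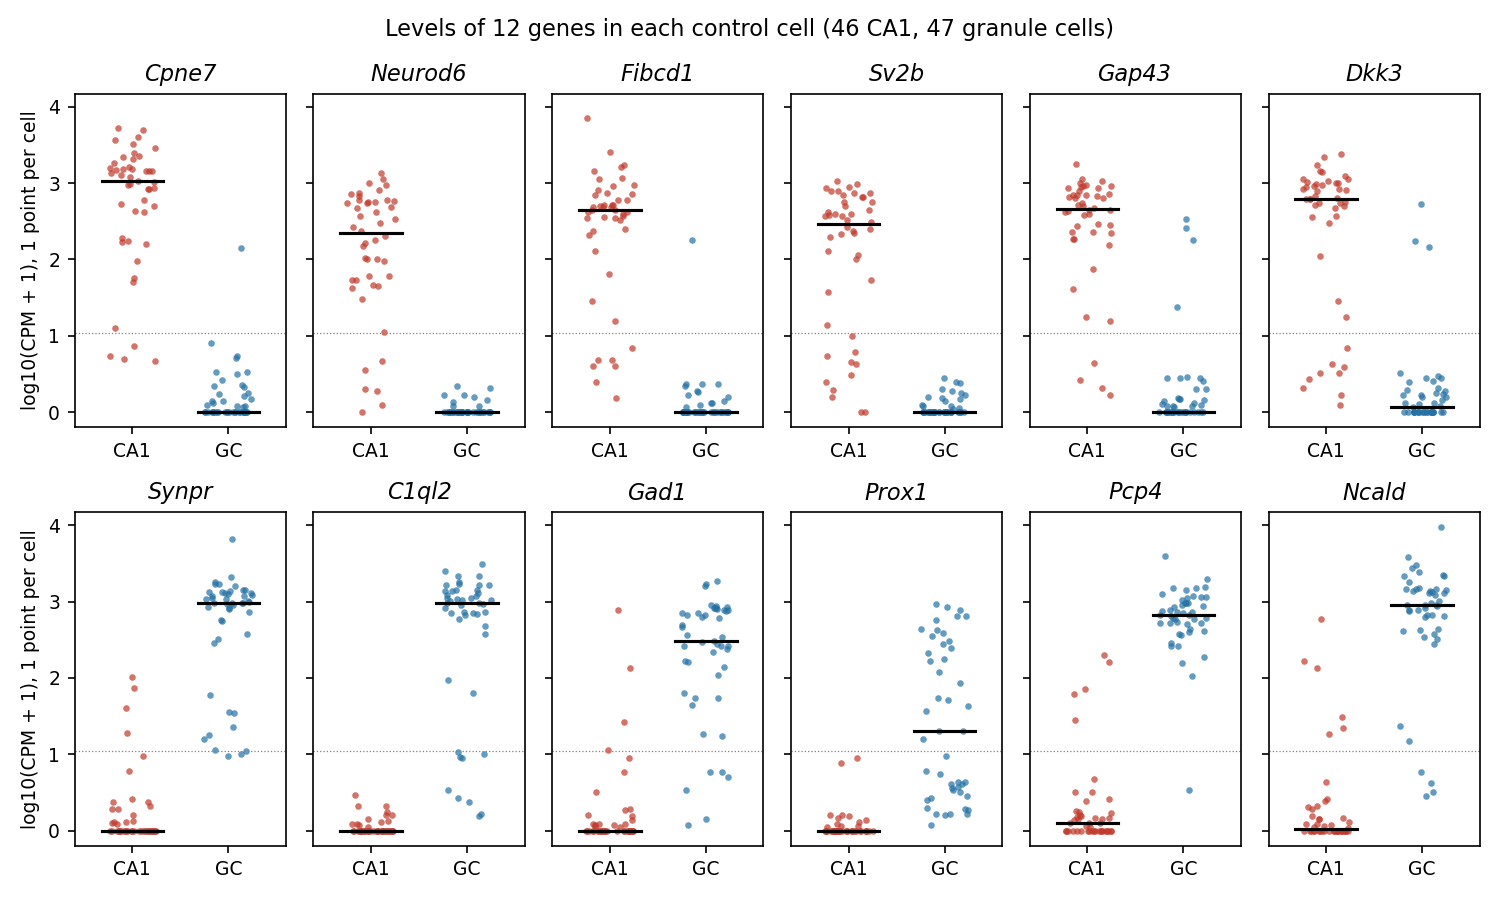
Each point is 1 cell, with its level as log10 of CPM plus 1 on the vertical axis and CA1 cells left of granule cells (GC) in each panel. Black bars are medians and the dotted line is 10 CPM. The upper row shows genes called higher in CA1 and the lower row genes called higher in granule cells, and in every panel some cells of the high group lie among the low group.

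Summed over each list of markers, every cell sided with its label. The lists were chosen with earlier results of these data known, so this is not an independent check of the labels. The CA1 list came to a median of 6656 CPM per cell in CA1 cells (1821 to 16382) and 1493 CPM in granule cells (12.95 to 4079). The granule cell list came to 992 CPM in CA1 cells (19.9 to 3067) and 7040 CPM in granule cells (2308 to 12663). In 0 of 46 CA1 cells and 0 of 47 granule cells was the sum of the other type's list the larger. By the number of markers at 10 CPM, 1 CA1 cell had more granule cell than CA1 markers and no granule cell had more CA1 markers. Of 28 expressed CA1 markers 20 were called higher in CA1 and 3 higher in granule cells, namely Ndst4, Hs3st4 and Nr4a2. Of 28 expressed granule cell markers 0 were called higher in CA1 and 26 higher in granule cells. Over all expressed genes 14.5% were called higher in CA1 and 11.7% higher in granule cells.

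**Figure D2:**
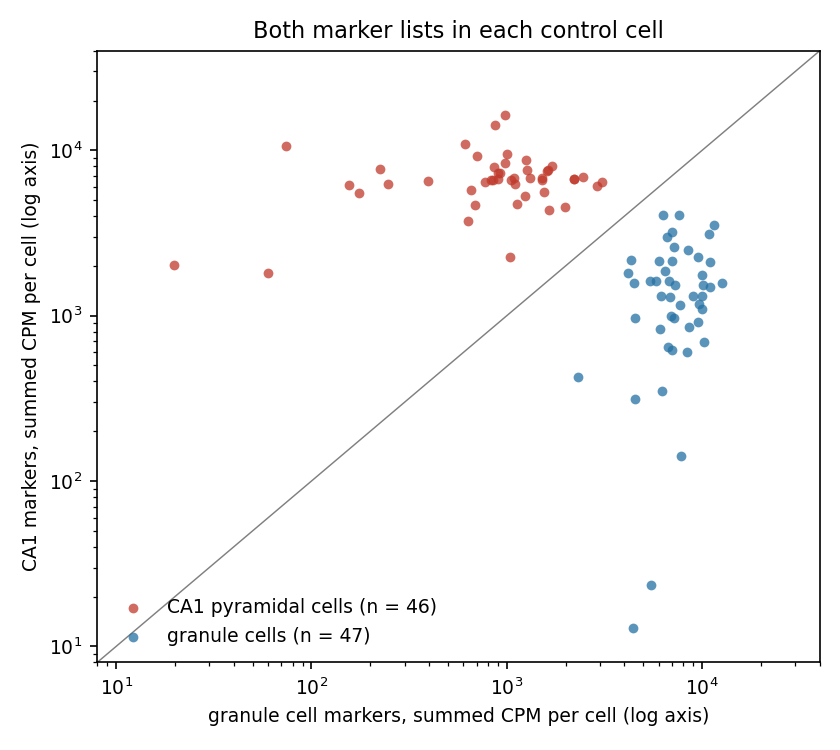
Each point is 1 control cell, with the summed CPM of the CA1 marker list on the vertical and of the granule cell marker list on the horizontal axis (both log axes). All 46 CA1 cells lie above the line of equal sums and all 47 granule cells below it. Both lists were chosen with earlier results of these data known.

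Over the whole transcriptome, 9954 of 22870 genes were expressed. Of these, 1446 were called higher in CA1 (14.5%) and 1160 higher in granule cells (11.7%), and 4222 (42.4%) lay within 1.5-fold. With the authors' normalized values in place of CPM, the same rule called 1232 higher in CA1 and 1663 higher in granule cells, so the share of calls on the CA1 side was 42.6%, against 55.5% with CPM. When per-cell CPM were averaged with each gene's highest cell left out of either group, 1502 and 788 were called, a CA1 share of 65.6%. Without the cells with Y-linked reads 922 genes were called higher in CA1 and 1479 higher in granule cells, among them 626 of the 1446 and 869 of the 1160, and 34 of the 1446 and 10 of the 1160 took the opposite sign. Differences of 16-fold or more made up 11.9% of the calls on the CA1 side and 11.5% of those on the granule cell side. No gene divided the cells fully, since the ranges of the groups overlapped for all 9954. The share of cells at 10 CPM differed by 75 points or more for 7 genes higher in CA1 and 6 higher in granule cells, and by 50 points or more for 32 and 12.

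The genes with the widest gap in the share of cells on the CA1 side were led by Cpne7, which encodes a calcium-dependent membrane-binding copine. It stood at 1257 CPM in CA1 cells, with cells from 3.69 through 1052 to 5287 CPM, against 4.13 CPM in granule cells, with cells from 0 through 0 to 141.6 CPM. It reached 10 CPM in 42 of 46 CA1 cells and 1 of 47 granule cells, and the log2 ratio was 7.94. A single cell held 82.9% of the Cpne7 reads of granule cells, and the ratio was 9.503 as a mean without the highest cell. Over all 54 CA1 and 60 granule cells sequenced, it was 3.57 for Cpne7 and 4.69 for Neurod6, against 8.17 for Neurod6 after quality control. The synaptic vesicle protein gene Sv2b (331 CPM in CA1 and 0.205 CPM in granule cells) and the mannosidase gene Man1a (151.9 and 0.116 CPM) reached 10 CPM in 35 and 31 CA1 cells and in no granule cell. Gap43, whose growth cone protein is tied to axon growth and plasticity, was at 473 CPM in CA1 and 17.1 CPM in granule cells and reached 10 CPM in 42 CA1 and 4 granule cells. Dkk3, a secreted protein of the Dickkopf family, was at 648 CPM in CA1 and 18.9 CPM in granule cells. The other genes of this set were Nov, Rasgrp1, Mpped1, Cntnap2, Ociad2, Neurod6 and Fibcd1. A single cell held 97.9% of the Nov reads of granule cells, and the log2 ratio of Nov was 4.96 with it and 8.29 as a ratio of mean CPM without the highest cell of each group.

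On the granule cell side the widest gap belonged to Synpr, which encodes synaptoporin, a vesicle protein of mossy fibre terminals. It stood at 3.97 CPM in CA1 cells, with cells from 0 through 0 to 102.3 CPM, against 1040.2 CPM in granule cells, with cells from 8.46 through 964 to 6532 CPM. It reached 10 CPM in 4 of 46 CA1 cells and 45 of 47 granule cells. Ncald, the calcium sensor neurocalcin delta, was at 16.4 CPM in CA1 and 1239 CPM in granule cells, and it reached 10 CPM in 6 and 43 cells. Gad1, an enzyme of GABA synthesis, stood at 17.3 CPM in CA1 and 449 CPM in granule cells, and 1 CA1 cell held 72.9% of the CA1 reads. In granule cells Gad1 reached 10 CPM in 41 of 47 cells, while Gad2, the other such enzyme, stood at 3.11 CPM in CA1 and 0.312 CPM in granule cells and was not expressed by the rule. Gad1 was together with the vesicular glutamate transporter Slc17a7 at 10 CPM in 34 of 47 granule cells. Slc17a7 itself was not called, at 533 CPM in CA1 and 318 CPM in granule cells (log2 ratio 0.75). Pcp4 (chromosome 16) stood at 12.6 CPM in CA1 and 762 CPM in granule cells, and Igsf5 at 11.9 and 731 CPM. The 2 loci overlap by 57975 bases on the same strand, so their reads cannot be told apart with certainty and they are best read as 1 signal. Stxbp6, Dock10, Fam163b, Adamts1, Rfx3, C1ql2 and Prox1 completed the set.

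**Figure D3:**
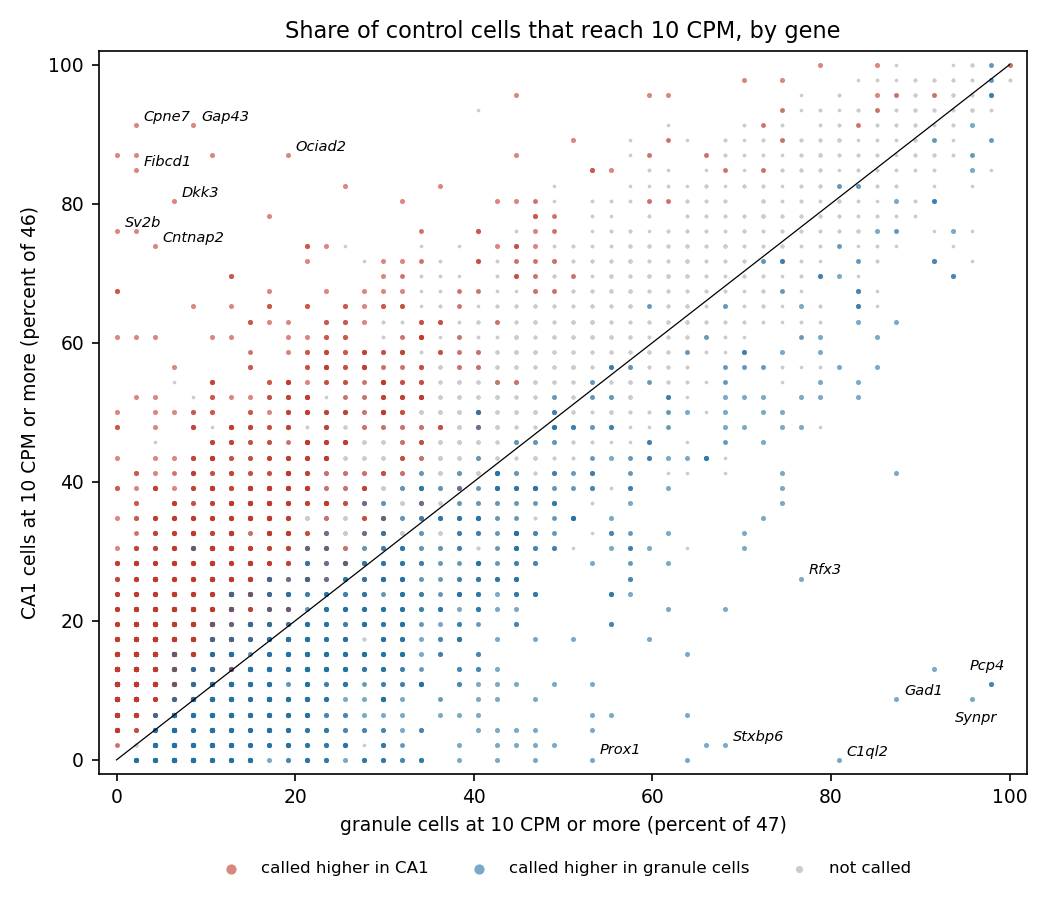
Each point is 1 expressed gene, with the percent of CA1 cells at 10 CPM or more on the vertical and of granule cells on the horizontal axis. Genes near the upper left corner, such as Cpne7, mark CA1 cells and those near the lower right, such as Synpr and C1ql2, mark granule cells.

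Transcription factors of forebrain neurons were called on both sides. Of 69 expressed members, 15 were higher in CA1 (21.7%) and 18 higher in granule cells (26.1%), against 14.5% and 11.7% of all expressed genes. The median log2 ratio was -0.25, against 0.02 over all expressed genes. On the CA1 side, the corepressor gene Runx1t1 was at 140.8 CPM in CA1 and 0.0605 CPM in granule cells, and the TALE homeobox gene Meis2 at 141.7 and 0.14 CPM. Ldb2, whose product bridges LIM-domain proteins, was at 118.3 CPM in CA1 and 0.0837 CPM in granule cells. Meis2 reached 10 CPM in 22 of 46 CA1 cells. On the granule cell side Neurod1, which drives granule cell differentiation, was at 13.4 CPM in CA1 and 114.1 CPM in granule cells and reached 10 CPM in 5 CA1 and 23 granule cells. Zfpm2, a GATA cofactor, stood at 0.0120 CPM in CA1 from 3 reads and at 116.8 CPM in granule cells, where 1 cell held 63.6% of its reads. The LIM homeobox gene Lhx9 stood at 0.0641 CPM in CA1 and 35.1 CPM in granule cells, and Id4, an inhibitor of basic helix-loop-helix factors, at 0.0200 and 40.7 CPM. Tcf4 (580.3 CPM in CA1 and 515 CPM in granule cells), Zbtb20 (415 and 567 CPM), Bcl11b (163.9 and 116.8 CPM) and Neurod2 (92.7 and 53.3 CPM) were not called. Tcf4, Zbtb20 and Bcl11b lay within 1.5-fold, while the log2 ratio of Neurod2 was 0.79. Without the second CA1 run the ratio of Zbtb20 was -1.60, and without the second granule cell run that of Neurod2 was 1.56. In those settings Tcf4 stood at -0.03 and 0.19. A gene that was not called therefore need not have like levels in both types.

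Of 61 expressed genes that organize synapses across the cleft 10 were higher in CA1 (16.4%) and 12 higher in granule cells (19.7%), with a median of -0.07, against 14.5% and 11.7% of all expressed genes. Ptpru, a receptor tyrosine phosphatase, was at 131.7 CPM in CA1 and 0.0372 CPM in granule cells and reached 10 CPM in 22 and 0 cells. Adgrl2, the adhesion receptor latrophilin-2, was at 238 CPM in CA1 and 4.8 CPM in granule cells, where 1 cell held 97.8% of the reads. Cntnap2, a neurexin-like protein that clusters potassium channels, was at 153.1 and 0.684 CPM, and the teneurin gene Tenm3 at 13.4 and 1.21 CPM. Granule cells were higher in Lrrtm4, a postsynaptic partner of heparan sulfate proteoglycans, at 0.0240 CPM in CA1 and 61.7 CPM in granule cells, with 0 CA1 and 22 granule cells at 10 CPM. C1ql3, a relative of C1ql2, was at 33.3 CPM in CA1 and 123.7 CPM in granule cells. C1ql3 reached 10 CPM in 24 CA1 and 37 granule cells, while C1ql2 reached it in no CA1 cell. Cadm1 (508 CPM in CA1 and 459.5 CPM in granule cells) and Ptprs (377 and 328 CPM) lay within 1.5-fold.

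Cadherins and protocadherins, which hold like cells together, had 4 of 21 expressed members higher in CA1 and 8 higher in granule cells (median -0.52). The shares were 19.05% and 38.1%, against 14.5% and 11.7% of all expressed genes. T-cadherin, Cdh13, stood at 1.03 CPM in CA1 and 146.4 CPM in granule cells, and Cdh9, known from synapses of granule cells with CA3, at 9.13 and 201.7 CPM. Cdh9 reached 10 CPM in 3 of 46 CA1 cells and 26 of 47 granule cells. Pcdh17 was at 10.4 CPM in CA1 and 59.9 CPM in granule cells. Higher in CA1 were Pcdh7 (63.4 CPM in CA1 and 2.4 CPM in granule cells), Clstn1 (666 and 230.4 CPM), Cdh11 (100.2 and 34.5 CPM) and Celsr3 (55.6 and 19.2 CPM).

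Among axon guidance genes, 9 of 38 expressed members were higher in CA1 and 5 higher in granule cells (median 0.29). That is 23.7% and 13.2%, beside 14.5% and 11.7% of all expressed genes. Semaphorins lay on both sides. Sema3e, a ligand of plexin D1, was at 51.5 CPM in CA1 and 0.0233 CPM in granule cells, and it reached 10 CPM in 18 CA1 and 0 granule cells. Sema4a was at 93.9 CPM in CA1 and 4.54 CPM in granule cells, and the semaphorin receptor gene Plxna1 at 60.7 and 6.93 CPM. Sema5a, a class 5 semaphorin, was at 0.0361 CPM in CA1 and 125.2 CPM in granule cells with 0 and 18 cells at 10 CPM, and Sema5b at 0.857 and 20.8 CPM. The Eph receptors also differed, with Ephb3 at 32.8 CPM in CA1 and 0.0093 CPM in granule cells and Ephb1 at 2.43 and 68.04 CPM, although 1 granule cell held 62.2% of the Ephb1 reads. Unc5a (225 CPM in CA1 and 188.3 CPM in granule cells) and Plxna4 (180.5 and 250.4 CPM) lay within 1.5-fold.

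The release machinery had paralogs on opposite sides. Of 50 expressed presynaptic genes 10 were higher in CA1 (20%) and 12 higher in granule cells (24%), against 14.5% and 11.7% of all expressed genes. The list median was 0.25. The vesicle glycoprotein Sv2b was higher in CA1, as given above, while Sv2c stood at 0.509 CPM in CA1 and 51.7 CPM in granule cells. Sv2b reached 10 CPM in 35 of 46 CA1 and 0 of 47 granule cells, and Sv2c in 1 and 14. Rab3c, a small GTPase of vesicles, was at 199.98 CPM in CA1 and 18.4 CPM in granule cells, and its effector Rph3a at 3.21 and 49.9 CPM. Stxbp6, or amisyn, which binds SNARE proteins, was at 0.373 CPM in CA1 and 406 CPM in granule cells (log2 ratio -8.21), and 1 and 32 cells reached 10 CPM. Cadps2, a priming factor of dense-core vesicles, was at 112.7 CPM in CA1 and 8.46 CPM in granule cells, where 1 cell held 99.01% of the reads. The core SNARE gene Snap25 was at 3619.7 CPM in CA1 and 3145 CPM in granule cells, and Nsf, which takes SNARE complexes apart, at 1486 and 1953 CPM, both within 1.5-fold.

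Ion channel genes were compared in 2 lists. Of 43 expressed potassium channel genes 6 were higher in CA1 and 9 higher in granule cells (median 0.07). The CA1 share of 13.95% was near the 14.5% over all expressed genes, and the granule cell share was 20.9% against 11.7%. Kcnn2, the small-conductance calcium-activated channel SK2, was at 231.5 CPM in CA1 and 25.2 CPM in granule cells and reached 10 CPM in 34 CA1 and 10 granule cells. Kcnc2, a fast Kv3 subunit, was at 81.2 CPM in CA1 and 0.986 CPM in granule cells, and its relative Kcnc4 at 11.8 and 108.01 CPM. Kcnj2, the inward rectifier Kir2.1, was at 0.0280 CPM in CA1 and 119.4 CPM in granule cells, with 0 CA1 and 20 granule cells at 10 CPM. Kcns3 stood at 16.8 CPM in CA1 and had 0 reads in granule cells, where 3 reads would make 0.0140 CPM. Kcnip2, a subunit that binds Kv4 channels, lay within 1.5-fold, at 158.1 CPM in CA1 and 197.9 CPM in granule cells.

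Of 36 expressed sodium, calcium, HCN and TRP channel genes and their partners 10 were higher in CA1 and 4 higher in granule cells (median 0.53). The shares were 27.8% and 11.1%, against 14.5% and 11.7% of all expressed genes. Pex5l, which encodes the channel partner TRIP8b, was at 125.3 CPM in CA1 and 4.83 CPM in granule cells and reached 10 CPM in 28 CA1 and 2 granule cells. TRP channels were split, with Trpc5 at 14.6 CPM in CA1 and 0 reads in granule cells and Trpc6 at 0.0160 and 85.4 CPM. Of the Trpc5 reads 80.8% came from 1 CA1 cell. Scn3a was at 30.3 CPM in CA1 and 87.6 CPM in granule cells, while Scn3b (185.8 and 195.99 CPM) and Cacna1e (512 and 372 CPM) lay within 1.5-fold.

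Of 38 expressed glutamate receptor and scaffold genes 7 were higher in CA1 (18.4%) and 2 higher in granule cells (5.26%), with a median of 0.32. Over all expressed genes 14.5% and 11.7% were called, so the CA1 share was near that of all genes. Those higher in CA1 were Dlgap2, Shisa6, Neto2, Dlg2, Homer2, Shank1 and Grin2b. The kainate receptor partner Neto2 was at 33.5 CPM in CA1 and 4.59 CPM in granule cells, Dlgap2 at 66.6 and 4.2 CPM and Dlg2 at 60.1 and 14.1 CPM. The AMPA receptor partners Shisa6 (39.8 CPM in CA1 and 3.48 CPM in granule cells) and Shisa9 (37.9 and 146.5 CPM) went opposite ways. The kainate receptor subunit Grik4 was at 6.75 CPM in CA1 and 44.5 CPM in granule cells.

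Of 16 expressed GABA receptor subunits 2 were higher in CA1 (12.5%) and 1 higher in granule cells (6.25%), with a median of -0.11. Over all expressed genes 14.5% and 11.7% were called. Gabrd, the delta subunit of extrasynaptic receptors, stood at 2.02 CPM in CA1 and 97.4 CPM in granule cells and reached 10 CPM in 2 CA1 and 12 granule cells. Gabra3 was at 11.4 CPM in CA1 with 0 reads in granule cells, and Gabrg3 at 29.02 and 0.0186 CPM. The log2 ratio of Gabra3 was 3.63, but 0.08 without the second CA1 run and 1.03 without cells with at least 4 microglia markers.

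Of 22 expressed receptors for monoamines, acetylcholine, peptides and cannabinoids 11 were called higher in CA1 and 2 higher in granule cells (median 1.33), against 14.5% and 11.7% of all expressed genes. The serotonin receptor gene Htr5b was at 54.7 CPM in CA1 and 0.0186 CPM in granule cells, and the somatostatin receptor gene Sstr4 at 22.2 and 1.71 CPM. Cnr1, the cannabinoid receptor CB1, was at 102.8 CPM in CA1 and 13.1 CPM in granule cells and reached 10 CPM in 25 CA1 and 5 granule cells. Drd5, a dopamine receptor, was at 20.8 CPM in CA1 and 0.856 CPM in granule cells. Most of these genes were found at 10 CPM in few CA1 cells, with 8 for Htr5b, 8 for Sstr4 and 6 for Drd5. Higher in granule cells were the PACAP receptor gene Adcyap1r1 (53.4 CPM in CA1 and 179.97 CPM in granule cells) and the neuropeptide Y receptor gene Npy1r (43.6 and 116.5 CPM).

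Of 19 expressed genes for neuropeptides, granins and their processing 6 were higher in CA1 and 4 higher in granule cells (median 0.39). That is 31.6% and 21.1%, beside 14.5% and 11.7% of all expressed genes. Cck, or cholecystokinin, was at 878 CPM in CA1 and 315 CPM in granule cells, and 45 CA1 and 33 granule cells reached 10 CPM. Cpe, which trims peptide precursors, was at 3008 CPM in CA1 and 748 CPM in granule cells. The dynorphin precursor Pdyn was at 0.00801 CPM in CA1, from 2 reads, and 32.2 CPM in granule cells, where 6 of 47 cells reached 10 CPM. The neurotrophin gene Ntf3 was at 0.00401 CPM in CA1, from 1 read, and 72.9 CPM in granule cells. Bdnf, another neurotrophin, was at 103.4 CPM in CA1, where cells ran from 0 through 13.1 to 699.6 CPM, against 509 CPM in granule cells, where they ran from 0.217 through 286 to 2166 CPM.

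Genes of calcium binding, kinases and second messengers had 16 of 55 expressed members higher in CA1 and 8 higher in granule cells (median 0.38). These shares are 29.1% and 14.5%, against 14.5% and 11.7% of all expressed genes. The copines fell on opposite sides, with Cpne7 as above and Cpne8 at 199.02 CPM in CA1 and 0.0465 CPM in granule cells, but Cpne4 at 0.204 and 60.2 CPM. Camk1g, a calmodulin-dependent kinase, was at 39.7 CPM in CA1 and 0.381 CPM in granule cells, and the phospholipase C gene Plch2 at 100.4 and 4.57 CPM. Calm2, a calmodulin gene, lay within 1.5-fold, at 6959 CPM in CA1 and 5316 CPM in granule cells. Calb1, the calcium buffer whose Cre line gave the granule cells, was found in both types, at 617 CPM in CA1, where 34 of 46 cells reached 10 CPM, and 1025 CPM in granule cells, where 44 of 47 did. It was not called.

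Of 51 expressed cytoskeleton and axon growth genes 8 were higher in CA1 and 9 higher in granule cells (median 0.17). The CA1 share of 15.7% was near the 14.5% over all expressed genes, and the granule cell share was 17.6% against 11.7%. Stmn2, a microtubule regulator of growing axons, was at 306 CPM in CA1 and 22.6 CPM in granule cells and reached 10 CPM in 32 CA1 and 6 granule cells. The kinesin gene Kif21b was at 40.8 CPM in CA1 and 0.26 CPM in granule cells. Dock10, an activator of small GTPases, stood at 0.248 CPM in CA1 and 335 CPM in granule cells, and the Rac activator Tiam1 at 6.41 and 54.2 CPM. The tubulin genes Tuba1a (1428 CPM in CA1 and 1551 CPM in granule cells) and Tubb2a (905 and 738 CPM) lay within 1.5-fold.

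Of 39 expressed matrix and secreted factor genes 10 were higher in CA1 and 11 higher in granule cells (median 0.56). The shares were 25.6% and 28.2%, against 14.5% and 11.7% of all expressed genes. Several of these genes were found in part of the cells only. Dcn, the small proteoglycan decorin, was at 174.8 CPM in CA1 and 0.6 CPM in granule cells and reached 10 CPM in 13 CA1 and 1 granule cell. Lefty1, a secreted inhibitor of Nodal signalling, was at 123.4 CPM in CA1 and 0.0465 CPM in granule cells and reached it in 23 and 0 cells. Dcn and Lefty1 were both at 10 CPM in 7 CA1 cells, Dcn alone in 6, Lefty1 alone in 16 and neither in 17. In granule cells the calcium-binding matrix protein gene Smoc2 (0.0280 CPM in CA1 and 121.9 CPM in granule cells) and the chemokine gene Cxcl12 (0.0160 and 128.3 CPM) each reached 10 CPM in 16 of 47 cells. They did so together in 3 cells, Smoc2 alone in 13, Cxcl12 alone in 13 and neither in 18. Most cells with one were thus without the other at this level. Since each was found in a minority of cells, few joint cells can arise without any link, and avoidance was not tested. The integrin ligand Npnt was at 0.0401 CPM in CA1 and 54.1 CPM in granule cells.

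Activity-regulated genes leaned to granule cells. Of 38 expressed members, 1 was called higher in CA1 and 13 higher in granule cells, 34.2% against 11.7% of all expressed genes, with a median of -0.75 against 0.02. The immediate early transcription factor Atf3 stood at 105.95 CPM in CA1, where 12 of 46 cells reached 10 CPM, and at 619 CPM in granule cells, where 27 of 47 did. Ptgs2, or cyclooxygenase-2, was at 10.2 CPM in CA1 and 155.9 CPM in granule cells, Nr4a2 at 168.4 and 433 CPM, and the granin gene Scg2 at 447 and 1095 CPM. Ier2 was the called exception, at 186.7 CPM in CA1 and 18.8 CPM in granule cells. Junb (1551 CPM in CA1 and 2118 CPM in granule cells) and Dusp1 (1486 and 1459 CPM) lay within 1.5-fold. The count on the granule cell side was 16 of 37 without the cells that held microglia markers, where 17.5% of all expressed genes were called on that side. It was 20 of 38 without the second CA1 run, where 25.8% of all were, and 18 of 38 without the second granule cell run, where 20.6% were. The count was lower, 10 of 38, without the first CA1 run, where 13.7% of all were. It was 11 of 37 without the first granule cell run, where 16.5% of all were and the list median was -0.37.

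Markers of other cell types were compared as well. Whether their RNA came from the recorded cell or from other cells was not tested. Of 16 expressed microglia markers 10 were called higher in CA1 (62.5%) and 0 higher in granule cells, against 14.5% and 11.7% of all expressed genes. Summed over the list, CA1 cells ran from 7.82 through a median of 850.2 to 24560 CPM and granule cells from 0 through 23.97 to 16666 CPM. The fractalkine receptor gene Cx3cr1 reached 10 CPM in 9 of 46 CA1 cells and 0 of 47 granule cells, and Ctss, encoding cathepsin S, in 23 and 3. At least 4 microglia markers reached 10 CPM in 24 CA1 cells and 6 granule cells. Without those cells 1120 genes were called higher in CA1 (11.6% of expressed genes) and 1685 higher in granule cells (17.5%). Of the calls with all cells, 813 of the 1446 and 984 of the 1160 were made again. The CA1 marker list then had 16 of 27 expressed members higher in CA1 and 2 higher in granule cells, the receptor list 10 of 21 and 1, and the microglia list 1 of 9 and 1. Interferon and antigen presentation genes had 4 of 8 expressed members called higher in CA1 and 1 higher in granule cells, and without those cells 0 of 6 and 1. The interferon-induced gene Ifi27 stood at 121.3 CPM in CA1 and 7.2 CPM in granule cells, a log2 ratio of 3.90. Its ratio was 3.21 without those cells, where it was not called, and 0.62 over all sequenced cells. H2-D1, B2m, Fcer1g and Socs2 took the opposite sign without the cells with microglia markers.

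Astrocyte markers had 0 of 11 expressed members called higher in CA1 and 2 higher in granule cells. Oligodendrocyte lineage markers had 2 of 5 and 0. Over all expressed genes 14.5% and 11.7% were called. The median cell held 955 CPM of the astrocyte list in CA1 and 659.5 CPM in granule cells, and 441 and 238 CPM of the oligodendrocyte list. No endothelial or mural marker was expressed. Of 7 expressed interneuron markers 3 were higher in CA1 and 2 higher in granule cells, and those 2 were Gad1 and Adarb2. Markers of CA3, CA2 and mossy cells had 4 of 17 higher in CA1 and 5 higher in granule cells. Oxidative phosphorylation genes, which every neuron uses, had 2 of 53 members called higher in CA1 and 0 higher in granule cells (median -0.04), the lowest share of calls among the lists with an expressed member.

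**Figure D4:**
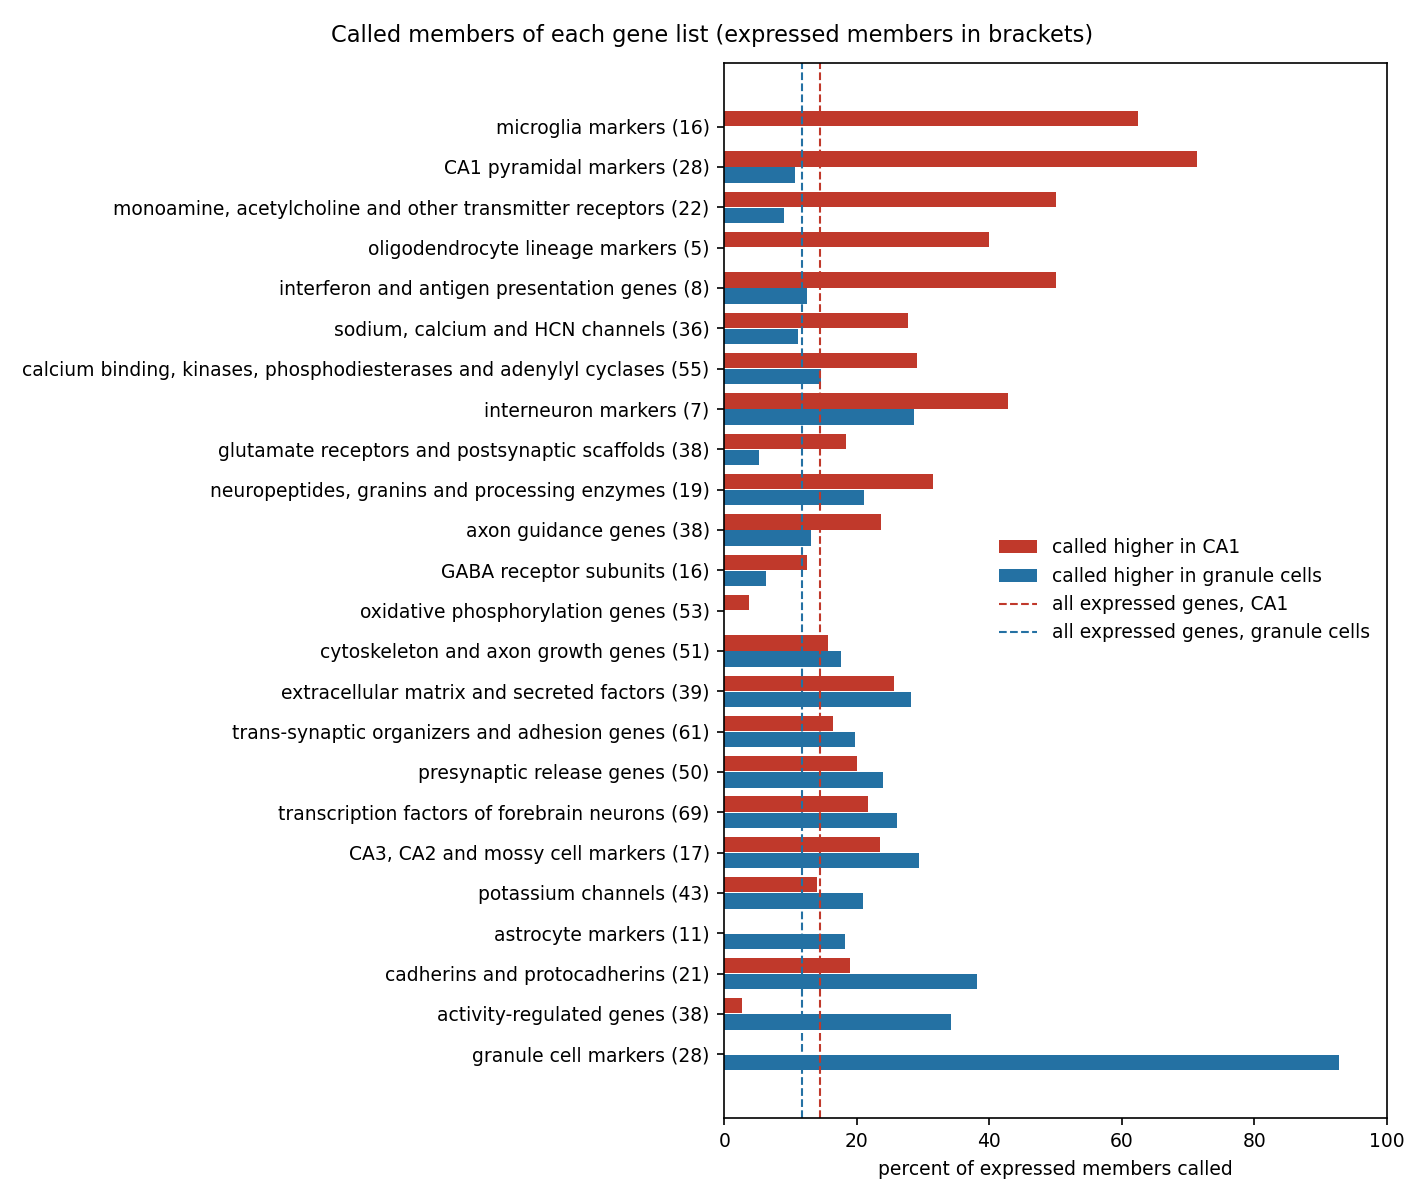
Bars give the percent of expressed members of each list called higher in CA1 (upper bar) and in granule cells (lower bar), and dashed lines give the same over all 9954 expressed genes, 14.5% and 11.7%. Microglia markers, modulatory receptors and CA1 markers lean to CA1, while granule cell markers, activity-regulated genes and cadherins lean to granule cells.

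Genes were also ranked by their correlation with the label genes over the cells of both types. Over the 93 cells, the Spearman correlation of CPM with Neurod6 was highest for Man1a (0.83), Cpne7 (0.82) and Sv2b (0.81), and with Fibcd1 for Runx1t1 (0.84), Man1a (0.83) and Mpped1 (0.83). With C1ql2 it was highest for Stxbp6 (0.85), Synpr (0.81) and Prox1 (0.80), and with Prox1 for C1ql2 (0.80), Stxbp6 (0.80) and Pcp4 (0.79). The 93 cells hold both types, so a difference between the types alone can give such values. Correlations within a type were not computed. Within CA1 cells Neurod6 and Fibcd1 were both at 10 CPM in 34 of 46 cells, Neurod6 alone in 6, Fibcd1 alone in 5 and neither in 1. Within granule cells Prox1 and C1ql2 were both at 10 CPM in 23 of 47, with C1ql2 alone in 15, Prox1 alone in 2 and neither in 7. A link between these genes within a type was not tested.

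The same contrast was then looked up in the cells that had also received the Ascl4 virus, none of which is a control cell. Of the 1446 genes higher in CA1 controls, 605 (41.8%) were at least 2-fold higher in Ascl4 CA1 cells than in Ascl4 granule cells, against 21.6% of all expressed genes, and 9.41% were at least 2-fold lower. Of the 1160 genes higher in control granule cells, 387 (33.4%) were at least 2-fold higher in Ascl4 granule cells, against 14.8% of all expressed genes, and 13.3% went at least 2-fold the other way. Of the CA1 markers called higher in CA1 controls 19 of 20, and of the granule cell markers called higher in control granule cells 21 of 26, were at least 2-fold the same way. Ndst4, Hs3st4 and Nr4a2, the CA1 markers called higher in control granule cells, all had the opposite sign in Ascl4 cells. Fibcd1 stood at 165.4 CPM in Ascl4 CA1 cells and 0.0444 CPM in Ascl4 granule cells, and Stxbp6 at 0.0420 and 209.7 CPM. Smoc2 and Cxcl12 did not carry over, at 0.084 and 0.056 CPM in Ascl4 CA1 cells and 0.109 and 0.174 CPM in Ascl4 granule cells. Pdyn stood at 2.77 CPM in Ascl4 CA1 cells and 0.317 CPM in Ascl4 granule cells. Of the 13 activity-regulated genes higher in control granule cells, 3 were at least 2-fold the same way and 4 had the opposite sign.

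**Figure D5:**
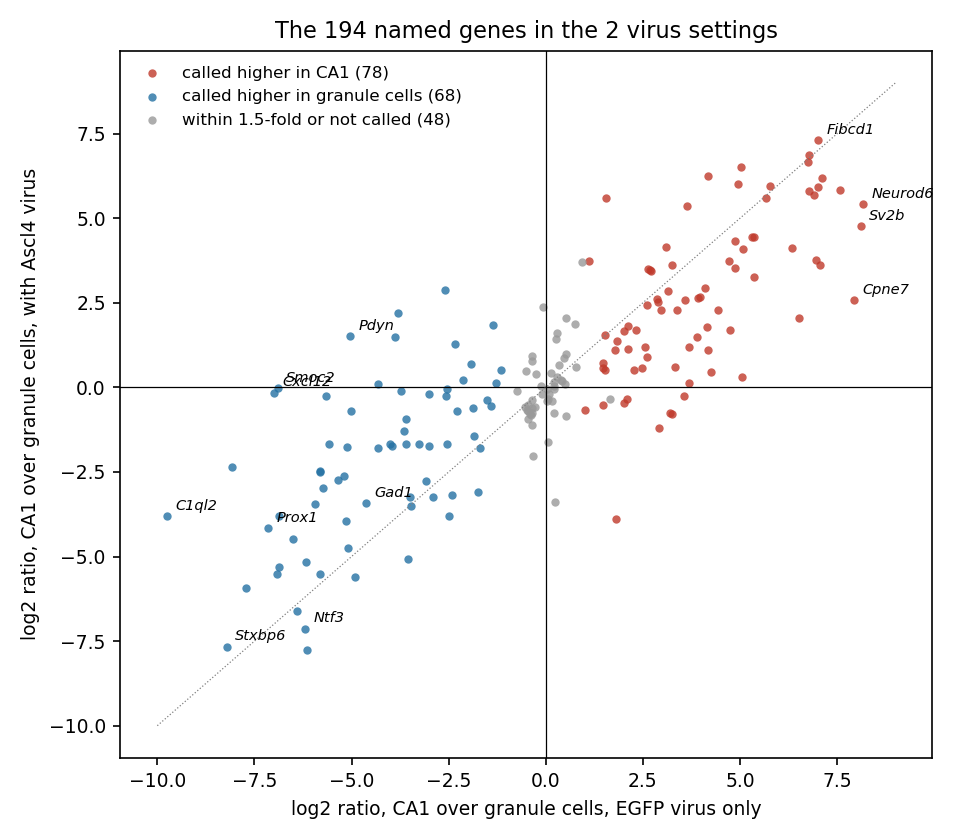
Each point is 1 gene taken by the naming rule, with the log2 ratio of CA1 over granule cells in EGFP control cells on the horizontal axis and in cells with the Ascl4 virus on the vertical axis. The dotted line marks equal ratios. Fibcd1, Neurod6 and Stxbp6 lie far from 0 on both axes, while Smoc2 and Cxcl12 lie near 0 on the vertical axis.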

How the data were processed

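Deposited tables held read counts per gene for all sequenced cells and for those that passed the authors' quality control, whose rules the sources used here do not give. Another deposited table held the authors' normalized signal for the cells that passed, which is each count divided by 1 factor per cell. STAR, HTSeq and GRCm38.p4 are named in the submitters' processing notes, without settings. The series text states 48 CA1 and 53 granule control cells past quality control, of 54 and 60 sequenced, whereas the table held 46 and 47, and the table was used. Besides 22870 genes it held 92 spike-in rows with 1 read in control cells, which were left out. Counts were summed per group and compared as described in the report, with no test, since the labels name no animal. No 2 control cells had identical counts. In such sums deeper cells weigh more.

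The 26 lists (1023 genes, 1000 of them found in the table) and the members were chosen with earlier results of these data known, and some genes stand on more than 1 list. Of 20 neuronal long noncoding RNAs, 1 was found (Snhg11, 4459.7 CPM in CA1 and 694 CPM in granule cells), and the others were not analysed here. The naming rule took the 12 called genes in each direction with the widest gap in the share of cells at 10 CPM, leaving out gene models, pseudogenes, ribosomal protein genes and mitochondrial genes. From each list it took up to 4 called members in each direction by log2 ratio and up to 2 members within 1.5-fold. It also took a set of fixed genes, and the 3 genes most like each label gene. The 4 Y-linked genes were picked after their values were seen. Some genes that the rule took are not reported here. Promoters came from RefSeq on GRCm38.p6 and gene positions from GENCODE on GRCm38. The code was tested on simulated counts with known changes. Alternatives were other means, pseudocounts, scalings (edgeR and DESeq2 on the summed libraries), filters, thresholds, cells and runs. Versions were edgeR 4.0.16 and DESeq2 1.42.0 in R 4.3.3, and scipy 1.17.1, pandas 2.3.3, numpy 2.4.6 and matplotlib 3.10.9 in Python 3.11.15.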

Additional observations from a re-analysis of the deposited data

How the results depend on the processing

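Of 1446 genes called higher in CA1 and 1160 higher in granule cells, the counts were 738 and 681 with the stricter filter of 50% of cells and 50 CPM, and 637 and 486 at 4-fold. Runs of title numbers were left out in turn, which also drops the requirement on that run. The count on the CA1 side was 2210 without the first CA1 run and 3159 without the second granule cell run. On the granule cell side it was 2509 without the second CA1 run and 2026 without the second granule cell run. Without cells with Y-linked reads, chosen after seeing the data, 922 genes were called higher in CA1 and 1479 higher in granule cells. Leaving out cells with microglia markers was also chosen after seeing the data. It gave log2 ratios of the opposite sign for Socs2 (-2.21), Fcer1g (-0.79), H2-D1 (-2.54) and B2m (-0.065). The cause of these moves was not tested. Among the called genes that the naming rule took, these 4 were the only ones to take the opposite sign under any of the 19 alternatives. Over all called genes, the opposite sign was taken by 57 of those higher in CA1 and 0 of those higher in granule cells without cells with microglia markers, by 34 and 10 without cells with Y-linked reads, by 20 and 6 with the authors' values and by 19 and 8 without quality control. The median log2 ratio over expressed genes moved by -0.11 with edgeR scaling, -0.11 with DESeq2 scaling, -0.25 with the authors' values and 0.15 as a mean without the highest cell. No cell had a larger marker sum for the other type, so leaving out such cells gave no value.

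No paired analysis was possible because the title numbers are not shared between the groups and the result comes from no test. With 1 sample per group and no animal named, none of these values measures the spread between animals.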

Other observations

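The reads of Y-linked genes differed between the runs of title numbers. Ddx3y, Eif2s3y, Kdm5d and Uty together reached 10 CPM in 11 of 15 cells of the first CA1 run and 11 of 31 of the second. In granule cells they reached it in 0 of 15 cells of the first run and 8 of 32 of the second. The highest CA1 cell held 1110.5 CPM and the highest granule cell 1006.8 CPM, while the median cell held 3.10 CPM in CA1 and 0.614 CPM in granule cells. The labels give no sex and no animal.

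Among CA1 cells the share of reads from mitochondrial genes ran from 0.0325% through 0.944% to 17.4%, and among granule cells from 0.136% through 0.509% to 6.17%.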
